A study of Mus musculus with 8 samples.

Results

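The clustered histone genes encode the linker histone H1 and the core histones H2A, H2B, H3 and H4, and they lie mostly in tandem arrays in the mouse genome. Rows of the coding gene table were taken where the mouse symbol began with Hist1 to Hist4 followed by a histone class, or carried the newer name of the same locus, and where at least 4 of the 8 libraries held 10 or more counts. Of 29844 genes in the table, 65 matched by symbol and 48 met the count rule, with 5 H1, 7 H2A, 13 H2B, 10 H3 and 13 H4 genes. Expression was measured by RNA sequencing of total RNA from cardiomyocytes of E18.5 mouse embryos, grown for 4 days until confluent and beating. The stiff group was 4 libraries from cells on polydimethylsiloxane (a silicone rubber) of about 150 kPa, and the soft group was 4 libraries from cells on the same material at about 10 kPa. All 8 libraries came from mice of the line B6.Cg-Tg(HIST1H2BB/EGFP)1Pa/J, so that both groups carry a transgene that fuses a human H2B gene to the green fluorescent protein. The labels name neither the promoter of the transgene nor the litters or cultures behind the libraries, so a p-value here reflects only how far the libraries of a group differ, and part of that may be technical. The library codes form a different series for each substrate, and anything tied to the code series cannot be told apart from substrate. Reads of the transgene's H2B sequence may be among those counted for mouse H2B genes.

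Coding totals ran from 27924797 to 34693673 counts per stiff library and from 27646471 to 30701041 per soft library. Levels are given as CPM, the counts of a gene per 1000000 counts of the scaled library total. The label was checked against 8 cardiomyocyte genes such as Tnnt2 and Myh6, which summed to between 23584 and 33199 CPM on stiff and between 22229 and 38724 CPM on soft. Markers of other cells were present on both substrates, with 8 fibroblast genes at 7623 to 12165 CPM on stiff and 8315 to 14687 CPM on soft. Fewer cells of a type and less RNA per cell cannot be told apart in such libraries.

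Most clustered histone genes are transcribed during S phase, when new DNA has to be packed into nucleosomes. Their messenger RNAs as a rule lack introns and end in a conserved stem-loop bound by SLBP instead of a poly(A) tail, although some loci also give longer polyadenylated transcripts. A nucleosome holds pairs of H2A, H2B, H3 and H4, and H1 binds the DNA where it enters and leaves. Whether poly(A) selection or ribosomal RNA depletion was used is not given in the sources used here. Copies within a core histone class are nearly identical in sequence, so that the counts of single genes are uncertain, and sums over a class are given beside them.

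All 48 members had a RefSeq locus on GRCm38.p6. Of these, 39 lay on chromosome 13, with 14 between 21715711 and 22043658 and 25 between 23531044 and 23764412. A further 6 lay on chromosome 3 between 96219885 and 96269155, 2 on chromosome 11 and 1, Hist4h4, on chromosome 6. The locus was 1000 bases or shorter for 44 members, with the shortest at 375 bases (Hist1h4c). The remaining 4, all H2B genes, were Hist1h2bc, Hist1h2be, Hist1h2bp and Hist2h2be. The promoters are shown as a description of the sequence, and the windows carry the letters of some elements known from histone promoters. The part of these elements in how members varied across the libraries was not tested. The 150 bases before the annotated start are given for an H1, an H3 and an H4 member and for 2 H2B members, of which Hist1h2bn shares the region with the H2A gene Hist1h2ak. Capitals mark the letters of the CCAAT box (CCAAT), the TATA box (TATAAA), the octamer known from H2B promoters (ATTTGCAT) and the AC box known from H1 promoters (AAACACA), each on either strand. The distance of a match from the start was not considered, so marked letters need not be a working box. Similar letters, such as tatatata, are not marked.

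Hist1h1c (chr13:23738657-23738806, plus strand): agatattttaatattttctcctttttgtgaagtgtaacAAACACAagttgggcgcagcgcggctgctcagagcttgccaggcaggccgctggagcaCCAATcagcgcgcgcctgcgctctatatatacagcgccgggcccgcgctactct
Hist1h2bb (chr13:23746584-23746733, plus strand): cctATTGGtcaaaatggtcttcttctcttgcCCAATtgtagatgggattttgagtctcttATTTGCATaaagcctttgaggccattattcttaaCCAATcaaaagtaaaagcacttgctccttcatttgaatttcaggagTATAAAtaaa
Hist1h2bn (chr13:21753926-21754075, plus strand): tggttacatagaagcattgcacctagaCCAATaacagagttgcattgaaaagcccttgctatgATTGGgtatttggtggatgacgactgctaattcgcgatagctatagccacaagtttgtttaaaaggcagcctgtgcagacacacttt
Hist1h3i (chr13:21783398-21783547, minus strand): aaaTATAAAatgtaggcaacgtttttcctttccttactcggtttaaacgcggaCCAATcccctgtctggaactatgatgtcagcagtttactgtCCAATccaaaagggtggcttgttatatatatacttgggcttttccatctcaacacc
Hist1h4d (chr13:23581418-23581567, plus strand): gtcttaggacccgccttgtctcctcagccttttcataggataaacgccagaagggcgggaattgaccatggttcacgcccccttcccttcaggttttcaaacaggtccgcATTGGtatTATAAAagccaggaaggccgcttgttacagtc

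RefSeq promoters were found for 42 members and searched over 250 bases before the start, beside 27025 promoters of all genes. The CCAAT letters were present in 33 of the 42 (78.6%), against 34.5% of all promoters. All 5 H1, 7 H2A, 10 H2B and 8 H3 promoters held them, and 3 of 12 H4 promoters did. The TATAAA letters were present in 25 of 42 (59.5%), against 12.97% of all promoters, and in every class. The octamer stood in 6 of 42 (14.3%), against 1.61% of all promoters. These 6 were 3 H2A and 3 H2B promoters. The AC box stood in 4 of 5 H1 promoters and in 1 H2A promoter, against 6.22% of all promoters. Each motif was searched on its own and overlapping matches were kept, and a match is a description of the sequence.

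The summed level of the clustered histone genes was lower on stiff in its mean, but the means differed by less than the SD of the soft libraries. The 48 members summed to 264, 253, 550.4 and 470.5 CPM in stiff 1 to 4, against 347, 249.9, 664 and 1355 CPM in soft 1 to 4. Libraries 3 and 4 were higher than 1 and 2 on both substrates, and soft 4 stood above all others. The group levels were 384 ± 149 CPM on stiff and 654 ± 499.8 CPM on soft (SD, n = 4 each). Stiff stood at 0.588 times soft, a log2 ratio of -0.77. Without soft 4 the soft level was 420 ± 217 CPM (SD of soft 1 to 3), and the log2 ratio was -0.13. The groups overlapped, since stiff 3 and stiff 4 exceeded soft 1 and soft 2. Same-numbered libraries deviated together over all genes, as did numbers 1 and 2 with each other across the substrates. Set against each other by number, the sum was lower on stiff in 3 of 4 pairs, at 0.761, 1.01, 0.8285 and 0.347 times soft for numbers 1 to 4. By class it was lower on stiff in 4 of 4 pairs for H2A (0.1599 to 0.506 times soft), H3 (0.220 to 0.997) and H4 (0.235 to 0.843), and in 3 of 4 for H1 (0.4402 to 1.04) and H2B (0.372 to 1.08). For 22 members (45.8%) stiff was below soft in all 4 pairs, against 5.68% of genes tested, and the labels do not say that the numbers pair the libraries. Soft 4 was the highest of the 8 libraries for 42 of 48 members (87.5%), against 19.5% of the 14059 genes tested. For 44 members (91.7%) the highest 2 libraries both carried the number 3 or 4, against 31.8% of genes tested. The members took from 0.0246% to 0.0566% of all counts in the stiff libraries and from 0.0245% to 0.134% in the soft libraries.

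**Figure D1:**
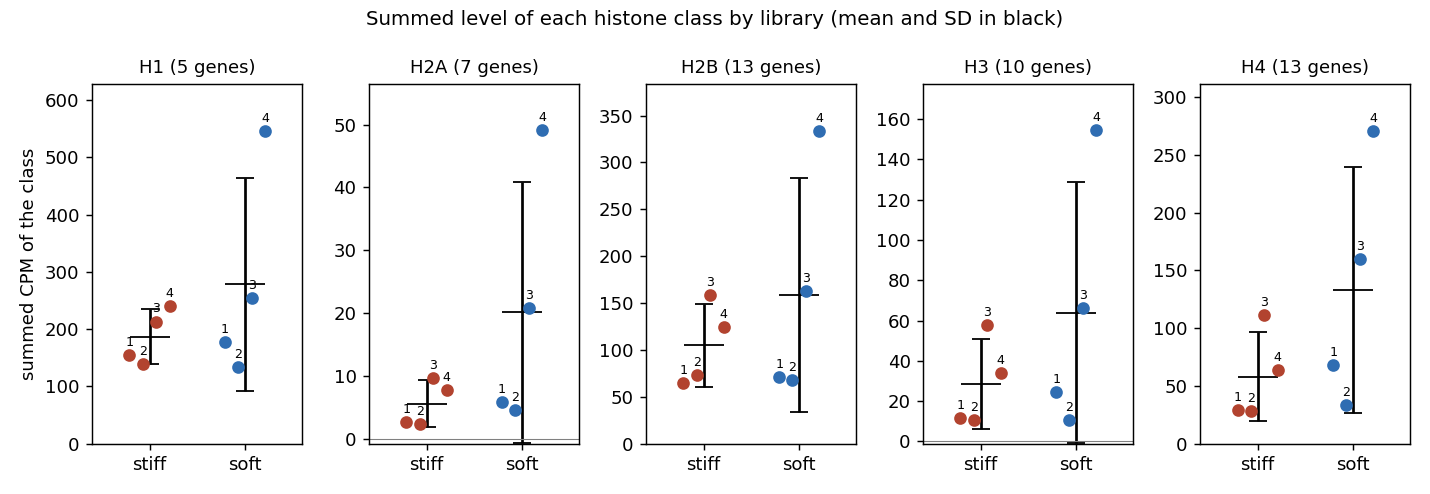
Summed CPM of each histone class (vertical axes, separate scales) for the stiff and soft libraries; points are libraries with their number, and black bars give the mean and SD of 4 libraries, which reach below 0 for H2A and H3 on soft. Soft 4 is the highest point in each class, from 4.105 times soft 2 for H1 to 14.8 times for H3. Soft 3 is also above every stiff library in each class, and soft 1 and soft 2 lie within or below the stiff range.

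H1 genes, whose products bind linker DNA, had the smallest relative spread of the 5 classes, with a 4.105-fold range over the 8 libraries, and the highest summed level. The 5 members summed to 156, 139, 213 and 241 CPM in stiff 1 to 4, against 178, 133, 255 and 547 CPM in soft 1 to 4. All 4 stiff libraries lay within the range of the soft ones. The group sums were 187 ± 47.95 CPM on stiff and 278 ± 186 CPM on soft (SD, n = 4 each), a log2 ratio of -0.57. Hist1h1c, which encodes the somatic subtype H1.2 and lies at chromosome 13 from 23738807 to 23739531, stood at 92.3, 86.4, 86.9 and 102 CPM in stiff 1 to 4, against 93.5, 87.4, 93.6 and 235 CPM in soft 1 to 4. Soft 4 alone was set apart, and the other 7 libraries lay between 86.4 and 102 CPM. Hist1h1d and Hist1h1e, which encode the subtypes H1.3 and H1.4, also had their highest level in soft 4. Their other libraries lay further apart than those of Hist1h1c. Hist1h1d stood at 19.2, 15.2, 38.2 and 28.6 CPM in stiff 1 to 4, against 24.5, 18.6, 50.3 and 93.1 CPM in soft 1 to 4, and its stiff and soft libraries overlapped. Hist1h1e stood at 29.1 ± 5.71 CPM on stiff and 46.4 ± 32.1 CPM on soft (SD, n = 4 each). Hist1h1b, which encodes the S phase subtype H1.5, stood at 5.82, 11.3, 32.6 and 43.3 CPM in stiff 1 to 4, against 16.3, 5.07, 36.5 and 73.5 CPM in soft 1 to 4. Its 2 lowest libraries were soft 2 and stiff 1, and its highest were soft 4 and stiff 4.

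H2A genes stood at the lowest level of the 5 classes and had the widest relative range, 20.9-fold over the 8 libraries. The 7 members summed to 2.68, 2.35, 9.78 and 7.86 CPM in stiff 1 to 4, against 5.89, 4.64, 20.9 and 49.1 CPM in soft 1 to 4. Stiff 1, stiff 2 and soft 2 were below 5 CPM, and soft 3 and soft 4 were above every stiff library. The group sums were 5.67 ± 3.72 CPM on stiff and 20.1 ± 20.7 CPM on soft (SD, n = 4 each), a log2 ratio of -1.83. Hist2h2ac, the most abundant H2A member, stood at 1.59, 0.851, 5.04 and 3.30 CPM in stiff 1 to 4, against 3.65, 1.41, 8.29 and 14.6 CPM in soft 1 to 4. Hist1h2ak had the lowest fold change of all members and stood at 0.0705, 0.408, 0.8397 and 1.26 CPM in stiff 1 to 4, against 0.7901, 0.422, 4.45 and 14.3 CPM in soft 1 to 4. Its 4 stiff libraries reached no higher than 1.26 CPM, and soft 1 and soft 2 lay among them. Hist1h2ab stood at 0.9903 ± 1.05 CPM on stiff and 3.598 ± 4.57 CPM on soft and Hist1h2ac at 0.439 ± 0.312 CPM on stiff and 1.55 ± 1.82 CPM on soft (SD, n = 4 each). Of 19 H2A rows that matched by symbol, 12 missed the count rule. The 3 members just inside the rule, with 10 or more counts in exactly 4 libraries, were Hist1h2af, with a mean of 0.521 CPM over 8 libraries, Hist2h2aa2, with 0.460 CPM, and the H2B gene Hist3h2ba, with 0.599 CPM. Just outside were Hist1h2ah, with 0.633 CPM, and the H3 gene Hist2h3c2, with 0.608 CPM. Of the 48 members, 35 held 10 or more counts in all 8 libraries, and the 17 matching rows that failed included 5 with no count in any library.

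Many H2A and H2B genes lie head to head and share the region between their starts. Such pairs were found from RefSeq starts at most 400 bases apart on opposite strands, which gave 9 pairs, 164 to 281 bases apart, among the genes with a start and strand in the promoter table. The testis-type pair Hist1h2aa and Hist1h2ba held no count in any library. In the other 8 pairs the H2A partner had fewer counts than the H2B partner, with H2B to H2A ratios of counts from 3.20 to 24.5. Of the 9 H2A partners 8 missed the count rule, as did 2 of the H2B partners. The ratio of 3.20 rests on 5 counts for Hist1h2ao and 16 for Hist1h2bq. Summed over the pairs, H2A genes held 1374 counts in the 8 libraries, against 10713 for H2B genes. The loci of most pairs are of similar length. Hist1h2ak held 679 counts and Hist1h2bn, at 164 bases from it, held 3233. Hist1h2ae held 87 counts, against 2134 for Hist1h2bg. A further 3 H2A and H2B neighbours, 173 to 240 bases apart, had a gene without a strand in that table and are not in these counts. Among them Hist2h2ac held 1178 counts, more than the 1124 of the longer Hist2h2be. Hist1h2ac held 240 counts, against 10655 for the long Hist1h2bc, and Hist3h2a held 0, against 150 for Hist3h2bb-ps. How reads that match several copies were counted is not given in the sources used here, and the part of such reads in these ratios was not tested.

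**Figure D2:**
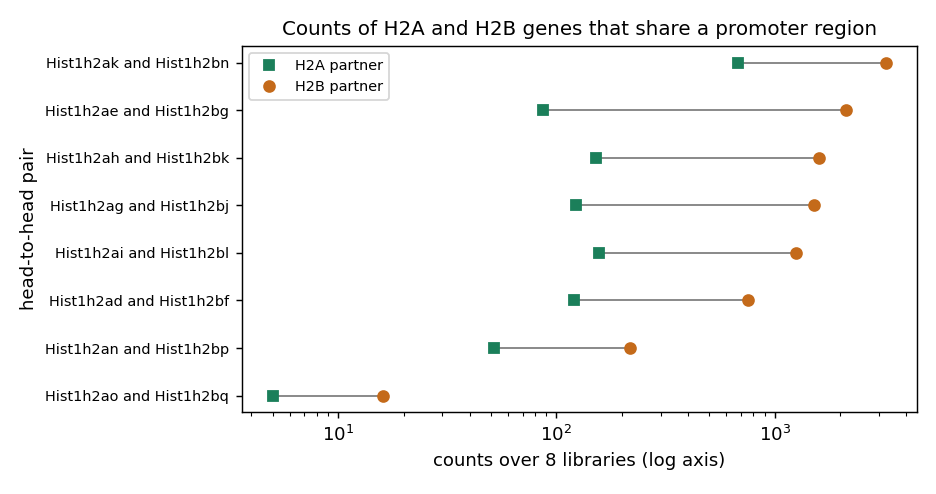
Counts summed over the 8 libraries (horizontal log axis) for the H2A partner (squares) and the H2B partner (circles) of 8 head-to-head pairs. The H2A partner is lower in each pair, with 679 against 3233 counts for Hist1h2ak and Hist1h2bn.

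H2B genes summed to 64.5, 73.1, 158 and 124 CPM in stiff 1 to 4, against 70.6, 68.03, 163 and 334 CPM in soft 1 to 4. Stiff 3 and stiff 4 lay above soft 1 and soft 2, and soft 4 above all. The group sums were 105 ± 44.2 CPM on stiff and 159 ± 125 CPM on soft (SD, n = 4 each), a log2 ratio of -0.60. Hist1h2bc, the H2B gene of highest CPM, stood at 24.5, 34.96, 51.6 and 51.3 CPM in stiff 1 to 4, against 32.9, 32.9, 42.6 and 76.8 CPM in soft 1 to 4. Soft 1, soft 2 and soft 3 lay within the range of the stiff libraries. Hist1h2bb, the mouse gene that shares its name with the human gene of the transgene, stood at 9.80, 11.2, 24.4 and 13.4 CPM in stiff 1 to 4, against 12.3, 13.5, 34.3 and 43.6 CPM in soft 1 to 4. The highest values were soft 4, soft 3 and stiff 3. Hist1h2be stood at 14.5 ± 5.61 CPM on stiff and 23.3 ± 19.9 CPM on soft and Hist1h2bn at 8.23 ± 6.79 CPM on stiff and 18.1 ± 19.9 CPM on soft (SD, n = 4 each). Hist1h2bl stood at 2.799 ± 1.73 CPM on stiff and 7.48 ± 8.18 CPM on soft, and soft 4 was again its highest library.

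Hist2h2be, a long H2B locus of 2667 bases at chromosome 3 from 96221072 to 96223738, went against most other members. It stood at 5.64, 5.11, 8.79 and 6.601 CPM in stiff 1 to 4, against 3.09, 2.15, 2.13 and 2.64 CPM in soft 1 to 4. Every stiff library was above every soft library, and soft 4 lay within the soft range. It was the only member of 48 (2.08%) whose groups did not overlap, against 1.29% of genes tested, 0.541% with stiff higher and 0.747% with stiff lower. Its log2 fold change was 1.38 (SE 0.50), with a 95% interval from 0.32 to 2.44, an unadjusted edgeR p of 0.0136 and an adjusted p of 0.99997. Without soft 4 its log2 fold change was 1.42. The 4 members with long loci summed to between 41.5 and 82.6 CPM on stiff and between 43.5 and 131 CPM on soft, a 3.15-fold range over the 8 libraries. The other 44 members ranged 6.09-fold, from 201 CPM in stiff 2 to 1225 CPM in soft 4. The other member with a higher estimate on stiff was Hist3h2bb-ps, a pseudogene on chromosome 11 named here after its values were seen, at 0.708 ± 0.436 CPM on stiff and 0.517 ± 0.214 CPM on soft (SD, n = 4 each).

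H3 genes, which encode H3.1 and H3.2, summed to 11.7, 10.4, 57.97 and 34.02 CPM in stiff 1 to 4, against 24.6, 10.4, 66.3 and 154 CPM in soft 1 to 4. Stiff 1, stiff 2 and soft 2 were close to each other, and soft 4 was 14.8 times soft 2. The group sums were 28.5 ± 22.4 CPM on stiff and 63.9 ± 64.8 CPM on soft (SD, n = 4 each), a log2 ratio of -1.16. Hist1h3i, the most abundant H3 member, stood at 3.84, 2.42, 17.8 and 6.16 CPM in stiff 1 to 4, against 3.39, 2.603, 11.99 and 30.4 CPM in soft 1 to 4. Here stiff 3 exceeded soft 3. Hist1h3c stood at 0.987, 1.36, 6.45 and 4.29 CPM in stiff 1 to 4, against 4.84, 1.97, 10.6 and 15.5 CPM in soft 1 to 4, with soft 1 above stiff 4. Hist1h3b ran from 1.57 to 6.07 CPM on stiff, against 0.141 CPM in soft 2 to 21.9 CPM in soft 4. Hist1h3d stood at 3.16 ± 2.099 CPM on stiff and 7.32 ± 8.56 CPM on soft and Hist1h3e at 2.58 ± 1.75 CPM on stiff and 6.35 ± 5.65 CPM on soft (SD, n = 4 each). All 10 H3 members had soft 4 as their highest library.

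H4 genes summed to 29.5, 28.3, 111 and 63.7 CPM in stiff 1 to 4, against 68.1, 33.6, 159.9 and 271 CPM in soft 1 to 4. The 2 lowest libraries were stiff 1 and stiff 2, and stiff 3 lay between soft 1 and soft 3. The group sums were 58.1 ± 38.9 CPM on stiff and 133 ± 106 CPM on soft (SD, n = 4 each), a log2 ratio of -1.20. Hist1h4d, the most abundant H4 gene, stood at 7.897, 7.15, 17.8 and 14.8 CPM in stiff 1 to 4, against 16.6, 7.56, 29.7 and 82.1 CPM in soft 1 to 4. Soft 3 and soft 4 were above every stiff library, soft 1 lay below stiff 3, and soft 2 lay among the low stiff libraries. Hist1h4f stood at 8.24 ± 6.62 CPM on stiff and 18.3 ± 15.8 CPM on soft, Hist1h4k at 5.51 ± 5.55 CPM on stiff and 12.6 ± 14.9 CPM on soft and Hist2h4, on chromosome 3, at 6.24 ± 3.84 CPM on stiff and 10.8 ± 9.29 CPM on soft (SD, n = 4 each). Hist4h4, the single member on chromosome 6, stood at 1.13, 1.63, 6.24 and 2.04 CPM in stiff 1 to 4, against 3.39, 3.87, 10.99 and 12.7 CPM in soft 1 to 4. Stiff 3 was the stiff library that reached into the soft range. Hist1h4c departed from its class and stood at 3.38, 3.404, 13.01 and 7.54 CPM in stiff 1 to 4, against 9.68, 3.69, 19.6 and 4.65 CPM in soft 1 to 4. Soft 3 was its highest library, and soft 4 lay below soft 1. Hist1h4h had the same order on soft, with 21.6 CPM in soft 3 and 9.14 CPM in soft 4. Hist1h4h was chosen after its values were seen.

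**Figure D3:**
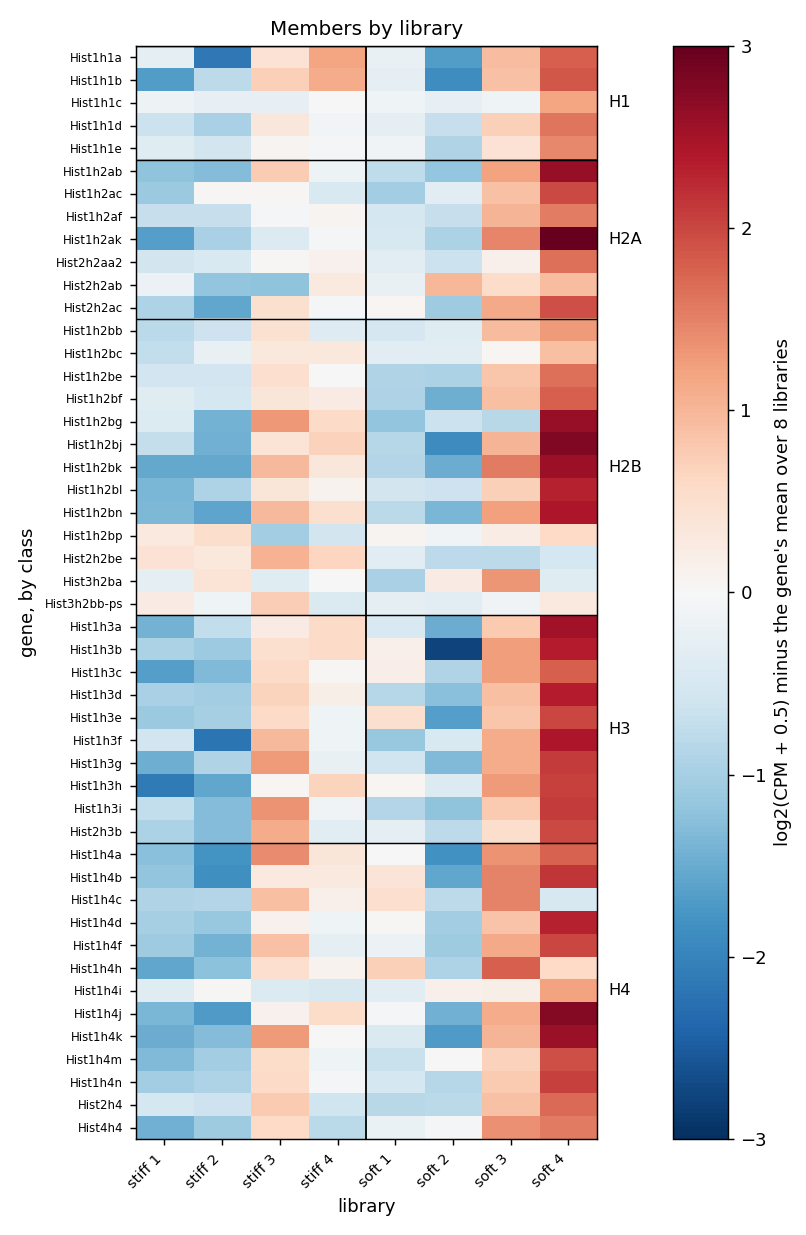
Level of each of the 48 members (rows, by class) in each library (columns), as log2(CPM + 0.5) relative to the mean of that gene in all 8. Soft 4 is the highest library for 42 members, and Hist2h2be is the row with every stiff library above every soft library.

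Compared per kilobase of locus among the 44 members of 1000 bases or less, levels differed between classes. The mean over 8 libraries ranged from 28.3 to 151 CPM per kilobase for the 5 H1 genes, with Hist1h1c at the top. H4 genes ranged from 4.99 to 57.1 (Hist1h4d), H2B genes from 1.296 to 41.4 (Hist1h2bb), H3 genes from 2.28 to 20.3 (Hist1h3i) and H2A genes from 0.772 to 10.3 (Hist2h2ac). The median per gene was 46.3 CPM per kilobase for H1, 13.01 for H2B, 11.96 for H4, 6.99 for H3 and 2.08 for H2A. The ranges of H2B and H4 overlapped over most of their length.

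The comparison of stiff with soft asks how substrate stiffness affects gene expression in these cells. No member passed the test. Of 14059 genes tested with edgeR's quasi-likelihood test, 0% were called at an adjusted p under 0.05, and 0 of 48 members were. DESeq2 and limma-voom called 0 members and 0 genes. At an unadjusted p under 0.05 there were 4 members (8.33%), against 0.925% of genes tested. They were Hist2h2be, which was higher on stiff, and Hist1h2ak, Hist4h4 and Hist1h4d, which were lower in their estimates. For the 3 lower ones the log2 fold changes were -2.94 (SE 1.10) for Hist1h2ak, -1.48 (SE 0.63) for Hist4h4 and -1.51 (SE 0.64) for Hist1h4d, each with an edgeR adjusted p of 0.99997. Without soft 4 they were -1.53, -1.13 and -0.58, with unadjusted edgeR p of 0.287, 0.135 and 0.204. Only 1 member, Hist2h2be, was then under 0.05 unadjusted. With all 8 libraries the same count was 9 with DESeq2, against 1.9% of genes, and 1 with limma-voom, against 1.29%. With the library number as a replicate block it was 15 of 48, against 2.56% of genes, and the adjusted p of each was 1.

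In their estimates 46 of 48 members were lower on stiff, against 51.9% of genes tested, with a median log2 fold change of -1.21 beside -0.01 for all genes. All 5 H1, 7 H2A, 10 H3 and 13 H4 members and 11 of 13 H2B members had lower estimates. The class medians were -0.50 for H1, -1.81 for H2A, -0.69 for H2B, -1.28 for H3 and -1.22 for H4. Several of these medians moved by over 1.5 times with the setting. With limma-voom the median was -0.72 over all members, -0.30 for H2B and -0.79 for H3, and with the replicate block it was -0.31 for H2B. Without stiff 4 it was -0.94 and without soft 2 -0.85 for H1, and without stiff 3 it was -1.85 for H4. A log2 fold change below -1 was found for 28 members (58.3%), against 2.92% of genes tested. Members are not independent of each other, since they vary together across libraries. Without soft 4 the estimate was lower on stiff for 34 of 48, against 49.3% of genes, with a median of -0.29, and 7 members were below -1, against 3.09% of genes. The class medians without soft 4 were 0.01 for H1, -0.71 for H2A, 0.00 for H2B, -0.17 for H3 and -0.51 for H4. Without soft 4 the estimates were below 0 for 12 of 13 H4 genes and for 6 of 13 H2B genes, and the log2 ratio of the summed H2B genes was 0.07. Among the H2B genes above 0 without soft 4 was Hist1h2bg, named here after its values were seen. Its log2 fold change went from -0.65 to 1.38, and it had 34.3 CPM in soft 4, against 1.98 to 3.10 CPM in soft 1 to 3. With the replicate block, 44 of 48 estimates were lower on stiff, against 52.2% of genes, with a median of -0.79.

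**Figure D4:**
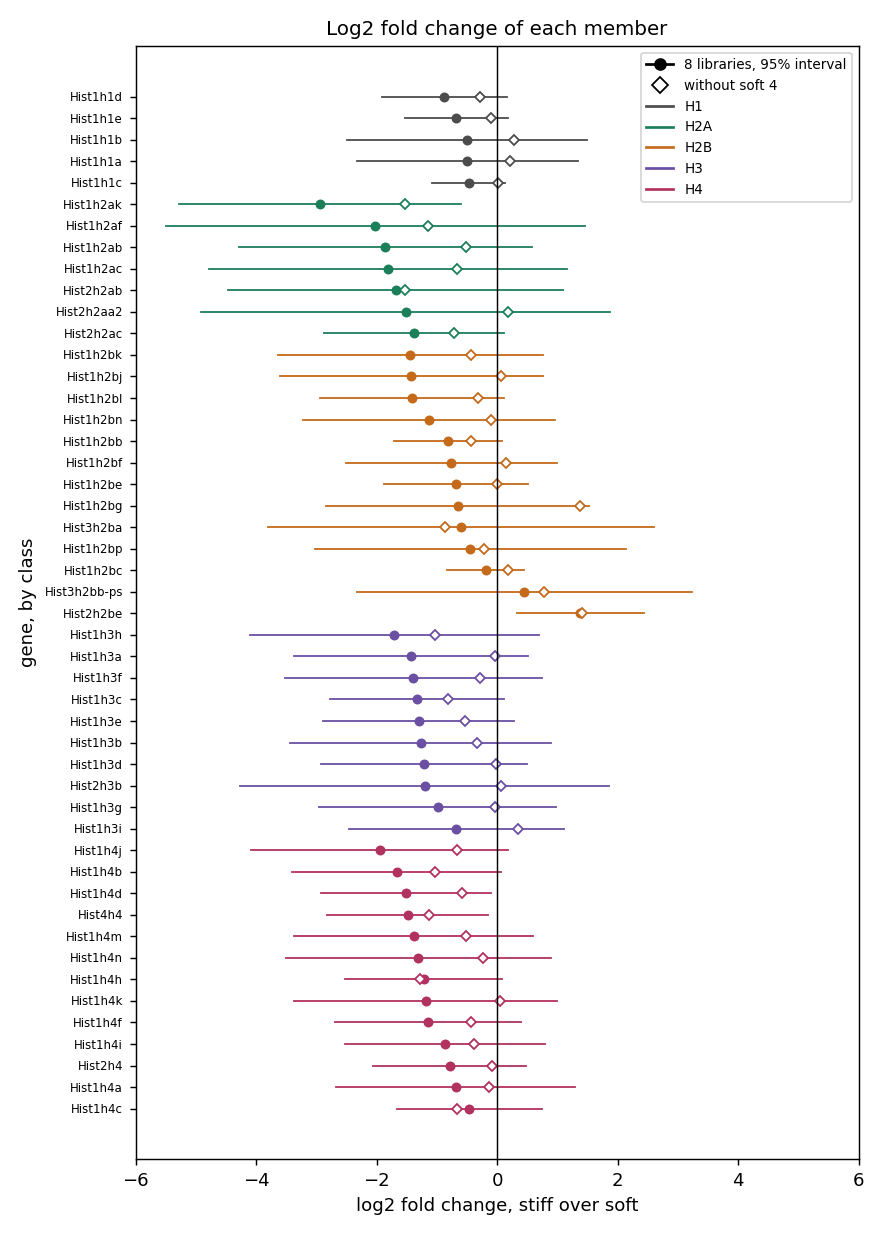
Log2 fold change of each member, stiff over soft (horizontal axis), by class; filled circles and lines give the estimate and unadjusted 95% interval from 8 libraries, and open diamonds the estimate without soft 4. Filled circles lie left of 0 for 46 of 48 members, and open diamonds for 34.

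The spread between libraries was wide for these genes. The biological coefficient of variation, edgeR's estimate of the spread between libraries of a group beyond counting error, had a median of 0.820 over the members and 0.294 over all genes tested, and 47 of 48 members lay above the median of all genes. Over 2052 other genes with a mean between 2.59 and 9.23 CPM, the middle range of the members' levels, the median was 0.540. The coefficient was lowest for Hist1h1c, at 0.286, and for Hist1h2bc, at 0.308, and highest for the H3 gene Hist2h3b, at 1.22. By class the median was 0.458 for H1, 0.711 for H4, 0.845 for H2B, 0.863 for H3 and 1.03 for H2A. At the median, the unadjusted 95% interval spanned a factor of 3.88 above and below the estimate for members, against 1.51 for all genes. Differences within that reach were not detectable for a typical member.

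Genes of DNA replication and proliferation also differed by library number, and less so by substrate. The 31 S phase genes, among them the replication licensing genes Mcm2 to Mcm7 and the clamp gene Pcna, summed to 1009, 1163, 1895 and 2196 CPM in stiff 1 to 4, against 1132, 1132, 1756 and 1962 CPM in soft 1 to 4. Libraries 3 and 4 were above 1 and 2 on both substrates. Their sum was 1566 ± 571 CPM on stiff and 1495 ± 428 CPM on soft (SD, n = 4 each), with 17 higher and 14 lower estimates on stiff, 0 called and a median log2 fold change of 0.03. Top2a, the topoisomerase of mitotic chromosomes, had 233, 305, 397 and 466 CPM in stiff 1 to 4, against 243, 282, 413 and 372 CPM in soft 1 to 4. Rrm1, a subunit of ribonucleotide reductase, had a log2 fold change of -0.00 (SE 0.18). Tk1, the S phase thymidine kinase, had 4.48, 4.97, 14.4 and 19.1 CPM in stiff 1 to 4, against 5.46, 8.27, 22.2 and 26.9 CPM in soft 1 to 4. Cdc6, a licensing factor, stood at 8.15 ± 5.32 CPM on stiff and 4.23 ± 3.87 CPM on soft (SD, n = 4 each). Per 100 CPM of S phase genes, the CPM of the clustered histone genes came to 26.2, 21.7, 29.04 and 21.4 in stiff 1 to 4, against 30.7, 22.1, 37.8 and 69.1 in soft 1 to 4. By this measure soft 4 and soft 3 were the highest, and stiff 2, stiff 4 and soft 2 the lowest. The part of S phase activity in the histone levels was not tested.

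Small structured RNAs without a poly(A) tail followed part of the same order in their sum. The list of 20, of which 10 were tested and 4 held no count, summed to 4604, 3396, 5162 and 3134 CPM in stiff 1 to 4, against 4265, 3675, 6565 and 8956 CPM in soft 1 to 4. Soft 4 and soft 3 were the highest, and stiff 4, high in histone genes, was the lowest. All 10 tested members had lower estimates on stiff, 0 were called and the median log2 fold change was -0.83, or -0.36 without soft 4. Soft 4 was the highest library for 4 of the 10. Snora74a, Rnu11 and Rn7s2 were highest in soft 2, Rprl3 and Scarna13 in soft 3 and Rn7s1 in stiff 3. Rn7sk, which holds the elongation factor P-TEFb inactive, made up most of the sum, at 3630.1 ± 897 CPM on stiff and 4811 ± 1531 CPM on soft (SD, n = 4 each). Rmrp, the RNA of an endoribonuclease, had 92.01, 97.5, 319 and 129 CPM in stiff 1 to 4, against 223, 123, 434 and 942 CPM in soft 1 to 4. Soft 4 was again the highest, and stiff 3 the highest on stiff. For Scarna2, a guide RNA of Cajal bodies, the estimate on the log2 scale was -0.77 (SE 0.39). Rpph1, named here after its values were seen, had 1310 CPM in soft 4, against 47.5 to 215 CPM in the other libraries. Its log2 fold change was -1.75, and 0.14 without soft 4. The part of these RNAs, or of the preparation of the libraries, in the histone levels was not tested.

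**Figure D5:**
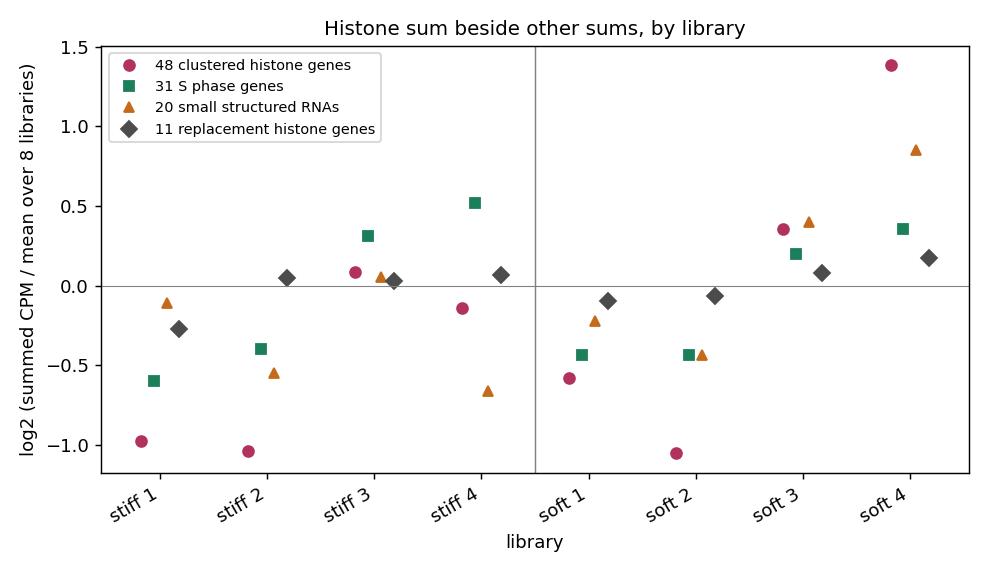
Summed CPM of 4 gene lists in each library (horizontal axis), as log2 of the sum over its mean in the 8 libraries (vertical axis). The clustered histone genes spread from 249.9 to 1355 CPM, the S phase genes from 1009 to 2196 CPM and the replacement histone genes from 772 to 1049 CPM.

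Replacement histones, most of which are made outside S phase from polyadenylated messenger RNA, were steadier in their sum. The 11 genes summed to 772, 962, 949 and 978 CPM in stiff 1 to 4, against 869, 890.4, 986 and 1049 CPM in soft 1 to 4. The range over the 8 libraries was 1.36-fold, against 5.42-fold for the clustered genes. Of 10 tested, 7 had lower and 3 higher estimates on stiff, and 0 were called. H3f3b, which encodes H3.3, stood at 307 ± 89.4 CPM on stiff and 299 ± 85.2 CPM on soft and H3f3a, which encodes the same protein, at 224 ± 54.7 CPM on stiff and 237 ± 49.5 CPM on soft (SD, n = 4 each). H1f0, the linker histone of resting cells, had a log2 fold change of -0.25 (SE 0.16). H2afx, the variant phosphorylated at DNA breaks, had 2.78, 4.43, 9.33 and 10.98 CPM in stiff 1 to 4, against 6.06, 6.26, 9.28 and 30.4 CPM in soft 1 to 4, with soft 4 above the rest as in the clustered genes. Whether the H2afx transcripts counted here end in a stem-loop or a poly(A) tail was not tested.

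Genes that make and handle histone messages and proteins showed no call either. Of 23 genes of histone messenger RNA processing, 14 had higher and 9 lower estimates on stiff, and the sum spanned 1.31-fold over the libraries. Npat, the coactivator of histone gene transcription, had 98.0, 103, 98.0 and 96.5 CPM in stiff 1 to 4, against 117, 118, 91.8 and 56.1 CPM in soft 1 to 4, and its lowest library was soft 4. Cpsf2, a subunit of the cleavage complex, had a log2 fold change of 0.30 (SE 0.18), Snrpb -0.34 (SE 0.25) and Fip1l1 0.08 (SE 0.18). Of 22 histone chaperones, 10 had higher and 12 lower estimates, and the sum spanned 1.22-fold. Asf1b, a chaperone of dividing cells, stood at 4.43 ± 2.63 CPM on stiff and 7.03 ± 3.75 CPM on soft, Chaf1a, of the replication-coupled assembly complex, at 11.2 ± 5.91 CPM on stiff and 16.2 ± 11.04 CPM on soft, Atrx at 447 ± 27.3 CPM on stiff and 439 ± 133 CPM on soft and Rbbp7 at 361 ± 54.1 CPM on stiff and 364 ± 23.1 CPM on soft (SD, n = 4 each).

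Markers of other cells also differed between libraries. The fibroblast genes summed to 7623, 8944, 12165 and 11353 CPM in stiff 1 to 4, against 8315, 9098, 14330.2 and 14687 CPM in soft 1 to 4. In this sum libraries 3 and 4 were again the higher ones on both substrates. Its most abundant genes were Col1a2 and Col3a1, and not every gene of a list followed its sum. Pdgfra ran the other way, at 303, 276, 151 and 252 CPM in stiff 1 to 4, against 290, 276, 144 and 211 CPM in soft 1 to 4. The 6 endothelial genes summed to 259, 233, 177 and 177 CPM in stiff 1 to 4, against 238, 214, 150.2 and 185 CPM in soft 1 to 4, the opposite order. Tek of this list was instead highest in stiff 4, at 45.4 CPM, and in soft 4, at 28.5 CPM. The cardiomyocyte genes summed to 28244, 23584, 24263 and 33199 CPM in stiff 1 to 4, against 23209, 22546, 22229 and 38724 CPM in soft 1 to 4, with soft 4 and stiff 4 the highest. Myh7 of this list was instead lowest in stiff 4, at 502 CPM, and in soft 4, at 780 CPM. The 7 mural genes summed to between 2024 and 3075 CPM on stiff and between 2257 and 3634 CPM on soft, with lower estimates on stiff for all 7 and 0 called. The 5 epicardial genes summed to between 328 and 435 CPM on stiff and between 318 and 490.4 CPM on soft. The 6 leukocyte genes summed to between 28.5 and 42.8 CPM on stiff and between 28.5 and 46.2 CPM on soft. Of 5 erythroid genes, 4 held no count in any library. The part of these cells in the histone levels was not tested.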

How the data were processed

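The authors deposited raw read counts per Ensembl gene and library, of which the coding table was used and the noncoding table was not. Per the submitters' processing notes the build is GRCm38 and the tools include TopHat2 2.0.14 with Bowtie2, TopHat, Cufflinks, HTSeq 0.6.1, edgeR, DESeq2 and FastQC 0.11.2, with no roles stated; no source used here gives strand or the handling of multiply matching reads. Of 29844 genes, 29150 matched a symbol. Groups follow the substrate label and numbers 1 to 4 the sample order. The test was run with edgeR 4.0.16 under R 4.3.3 (filterByExpr with a minimum count of 10 and total of 15, TMM scaling, robust quasi-likelihood F test of substrate, Benjamini-Hochberg adjustment over 14059 genes), and alternatives with DESeq2 1.42.0 and limma 3.58.1. All 48 members were tested. Log2 fold changes are stiff over soft. Reads without molecular identifiers are not independent molecules.

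Same-numbered libraries deviated from their group means together, with correlations from 0.157 to 0.363 over 14086 genes. Numbers 1 and 2 did so with each other as well, at 0.182 for stiff 1 with soft 2 and 0.160 for stiff 2 with soft 1. For stiff 3 with soft 4 the correlation was 0.092, and for stiff 4 with soft 3 it was -0.023. So the correlations do not set number 1 apart from number 2. The labels name no shared litter, culture or day. The test is unpaired and the block is given where it moves a count. The lowest chi-square per degree of freedom between any 2 libraries was 45.9, far above sampling noise. The fit was tested on simulated data. Members and lists were chosen with earlier results of these data known. Class sums carry no test. Named with values were, per class, the 4 members of highest mean CPM, the 2 of smallest p, the most positive fold change, any member without overlap and those at the edge of the count rule, and per related list the 2 of highest level and the 2 of smallest p. Sequences and positions are RefSeq's on GRCm38.p6.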

Additional observations from a re-analysis of the deposited data

Results flagged for a closer look

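In groups of 4 libraries, a library was taken to stand apart when its gap to the nearest other exceeded Dixon's 95% critical share of the group's range; chance gives this in about 1 group in 20, and 7 of 114 groups examined met it. Hist1h1c had 235 CPM in soft 4, where soft 1 to 3 had 87.4 to 93.6 CPM. Hist2h4 had 12 CPM in stiff 3, against 4.19 to 4.51 CPM in the other stiff libraries. H2afx had 30.4 CPM in soft 4, against 6.06 to 9.28 CPM. Rmrp had 319 CPM in stiff 3, against 92.0 to 129 CPM. H3f3a had 306 CPM in stiff 2, against 195 to 197 CPM. Rbbp7 had 280.4 CPM in stiff 1, against 385 to 392 CPM. The summed replacement histones stood at 772 CPM in stiff 1, against 949 to 978 CPM in the other stiff libraries.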

How the results depend on the processing

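No gene was called at an adjusted p under 0.05 under any alternative run: DESeq2 or limma-voom, other scalings, no filter or a stricter one, the replicate block, or leaving out any 1 library. Members with a lower estimate on stiff numbered 46, and 34 to 47 when 1 library was left out, with 34 without soft 4. The replicate block gave 44 and changed no call, but raised members at an unadjusted p under 0.05 to 15, against 4. With factors recomputed without soft 4, the log2 ratio of the summed H2B genes was 0.08, against -0.60 with all libraries. That of H1 was -0.00, against -0.57, so that the lower mean of both sums rests on soft 4. Those of H2A, H3 and H4 stayed below 0, at -0.88, -0.23 and -0.57, against -1.83, -1.16 and -1.20. Class sums over all matching symbols or as geometric means kept their directions. Of 428 alternatives over 27 named members, 8 reversed a direction, 7 of them without soft 4 and, for Hist1h4c, without soft 3. Their log2 fold changes with 1 library left out ran from -0.99 to 0.28 for Hist1h1b, -0.61 to 0.013 for Hist1h1c, -1.92 to 0.19 for Hist2h2aa2, -0.33 to 0.18 for Hist1h2bc, -0.98 to 0.0048 for Hist1h2be, -1.54 to 0.35 for Hist1h3i, -0.98 to 0.19 for Hist1h4c and -2.13 to 0.043 for Hist1h4k. Of 304 over 19 related genes, 22 reversed, in 7 genes near 0, with ranges of -0.12 to 0.24 for H3f3b, -0.27 to 0.024 for H3f3a, -0.13 to 0.17 for Npat, -0.12 to 0.21 for Atrx, -0.047 to 0.10 for Rbbp7, -0.070 to 0.25 for Top2a and -0.11 to 0.11 for Rrm1. Other scaling also turned Rbbp7, to 0.0014 with RLE factors and 0.0017 with DESeq2, and Rrm1, to 0.0053 and 0.0056. Apart from the libraries left out, the cause was not tested. Low counts of H2A genes and 4 libraries per group limit what could be detected; reads shared between copies were not measured.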
